A study of Mus musculus and Sus scrofa with 30 samples.

Results

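Magnolol was compared with vehicle in 3T3-L1 cells, with 3 libraries per group, so 6 of the 30 bulk RNA-seq libraries of the series carry the comparison. The 6 were chosen by their labels: one group was kept in magnolol and the other in DMSO, the solvent, and both were taken on day 5 of adipogenic induction. Every library came from cells in the same induction medium (insulin at 0.75 µg/mL, dexamethasone at 75 nM, IBMX at 37.5 µM and 10% fetal bovine serum), so the controls were themselves being driven towards fat cells. The dose of magnolol is not given in the sources used here. 3T3-L1 is an established line of mouse embryonic fibroblasts that can become adipocytes in culture. As a cultured line it models the fat cell lineage without the vessels and nerves of fat tissue. The series also holds 3T3-L1 cells given dicoumarol, dicoumarol plus magnolol, or rosiglitazone, and the same 5 treatments in pig DFAT (dedifferentiated fat) cells, derived from adipocytes that have gone back to dividing, which received another induction mix. That mix held more dexamethasone, less IBMX and less serum than the 3T3-L1 medium, and no insulin concentration is given for it. The title places the work in food production, with magnolol as a candidate to promote adipogenesis.

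Fat cell formation starts with C/EBPβ and C/EBPδ, which the insulin, dexamethasone and IBMX mix induces, and these switch on PPARγ and C/EBPα. PPARγ is a nuclear receptor that binds DNA as a pair with RXRα and, with C/EBPα, turns on the genes for fatty acid uptake, triglyceride synthesis, lipid droplet coats and adipokines. Magnolol is a lignan of magnolia bark for which binding to PPARγ and RXRα has been described. Rosiglitazone is a synthetic PPARγ agonist, and dicoumarol is a coumarin anticoagulant that inhibits the quinone reductase NQO1.

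The deposited values are gene counts divided by a DESeq2 size factor, called normalized counts here. The step between low values gave estimated depths of 22.9 M to 30.74 M reads for the 6 libraries, and mitochondrial genes took 5.22% to 7.46% of the counts. The labels give the cell type as fibroblast, and markers of both fibroblasts and adipocytes were detected. The 10 adipocyte markers had a summed level of 5726 to 11289 normalized counts in the vehicle libraries and 32271 to 50283 in the magnolol libraries. The 10 preadipocyte or fibroblast markers summed to 333989 to 372523 with vehicle and 280969 to 327875 with magnolol, far above the adipocyte markers in both groups. Among markers of other cells, the endothelial list was at 34.24 or less in every library, and the macrophage markers Ptprc, Adgre1 and Tyrobp and the muscle markers Myod1, Myog, Myf5 and Ckm are not listed in the table used here. Other members of such lists were present in both groups, namely Cd14 (144.5 to 237.8), Lyz2 (61.1 to 171.2) and Cd68 (19.6 to 36.03) of macrophages, Des (48.52 to 113.9) of muscle, and Sox9 (2902 to 3611) and Runx2 (587.6 to 751.6) of cartilage and bone. Libraries with the same replicate number deviated together from their group means (all 30 pairs across the 5 groups), so the number was also fitted as a block. Nothing says that the replicates came from separate cultures, so the p-values measure the spread between libraries of the same group, which may be technical. For 3T3-L1 cells that spread was estimated from all 15 libraries of the 5 groups, not from these 6 alone. In bulk RNA, more fat cells and more transcript per fat cell cannot be told apart, which holds for every adipocyte gene below.

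The response to magnolol was mostly a rise, led by genes of the lipid-storing adipocyte. Of 15723 genes tested with limma at a Benjamini-Hochberg adjusted p under 0.05, 193 differed (1.23%), 169 higher (1.07%) and 24 lower (0.153%) with magnolol. At least 2-fold changes were seen in 83 of the rises and 4 of the falls, and in all 193 genes the 3 magnolol libraries lay outside the range of the 3 vehicle libraries. Over all genes tested such a separation was seen in 2419 (15.4%), with the magnolol libraries above in 1340 (8.52%) and below in 1079 (6.86%). The rule that named the largest rises and falls required this separation, so it is no separate support for them. The median log2 fold change was 0.98 among the rises, −0.57 among the falls and −0.002 over all genes. With the replicate number as a block, 780 genes differed (4.96%), 553 higher (3.52%) and 227 lower (1.44%), including all 193. The median SE of a log2 fold change was 0.146 without and 0.112 with the block. With only the 6 magnolol and vehicle libraries fitted, 106 genes differed, 96 of them among the 193. Rises named below that lost their call in it were Pnpla3, Thrsp, G0s2, Mcam, Retn, Aqp7, Taldo1, Zfp423, Cyc1, Mdh1, Hk2, Bckdhb and Hibch. So did Dld, Adipor2, Mccc1, Pex14 and Acat1, and the falls Cryab, Pltp, B2m, Grb14 and Lyz2. Passing only with the block, as written below, compares the fits without and with it over all libraries. Leaving out 1 library changed the number of calls. It was 22 without magnolol 1, 33 without magnolol 3 and 62 without vehicle 2 or without vehicle 3. It was 116 without vehicle 1 and 135 without magnolol 2. Each such run also has fewer libraries in 1 group, so a lost call is not by itself a changed effect. Over the 6 runs the log2 fold change of Sfrp2, called in none, was −0.73 to −0.66, while that of Gpd1 was 2.35 to 3.56. Of 110 genes followed through these runs, 9 passed without the block in each of the 6 runs. They were Cidec, Plin1, Fitm2, Fabp4, Acsl1, Scarb1, Pcx, Fasn and Fam83a. Fitm2, Acsl1, Scarb1 and Fasn were among 20 genes chosen after their values were seen. How many of all genes tested passed in each of the 6 was not counted.

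**Figure D1:**
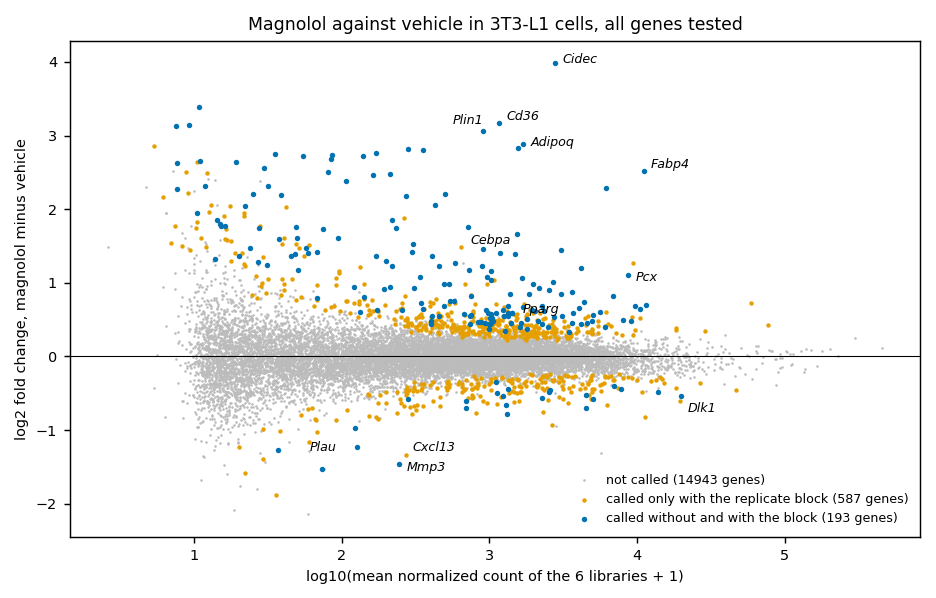
Log2 fold change of magnolol against vehicle in 3T3-L1 cells (vertical axis) against log10 of the mean normalized count of the 6 libraries plus 1 (horizontal axis), 1 point per gene. Blue marks the 193 genes called with and without the replicate block, orange the 587 called only with it and grey the rest; the blue points above 2 hold the lipid genes Cidec, Cd36, Plin1, Adipoq and Fabp4.

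Lipid droplet genes gave the largest rise of the whole comparison. Cidec, which encodes a droplet protein that drives the growth of large droplets, stood at 815, 186 and 201 normalized counts in vehicle 1, 2 and 3 and at 6883, 3597 and 4894 in magnolol 1, 2 and 3. Every magnolol library was far above every vehicle library, and the highest vehicle library was vehicle 1. The log2 fold change on the log2(value + 1) scale used throughout was 3.98 ± 0.53 (SE), a 15.8-fold rise (limma adjusted p = 0.00254). Plin1, which coats the droplet and gates the access of lipases, stood at 306, 114 and 184 with vehicle and at 1828, 1144 and 1807 with magnolol. Its groups were likewise far apart, with a log2 fold change of 3.06 ± 0.38 (limma adjusted p = 0.00142). Of 11 droplet genes tested, 4 rose and none fell, with or without the block. The other risers were Fitm2, an endoplasmic reticulum protein needed for droplet budding, at 1.01 ± 0.12 (adjusted p = 0.00122), and the coat protein gene Plin4 at 0.69 ± 0.13 (adjusted p = 0.0138). The call for Plin4 was lost without vehicle 1, vehicle 2, magnolol 1 or magnolol 3 (adjusted p = 0.0584 to 0.089). The median of the list was 0.20, so the rise sat in these 4 members.

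**Figure D2:**
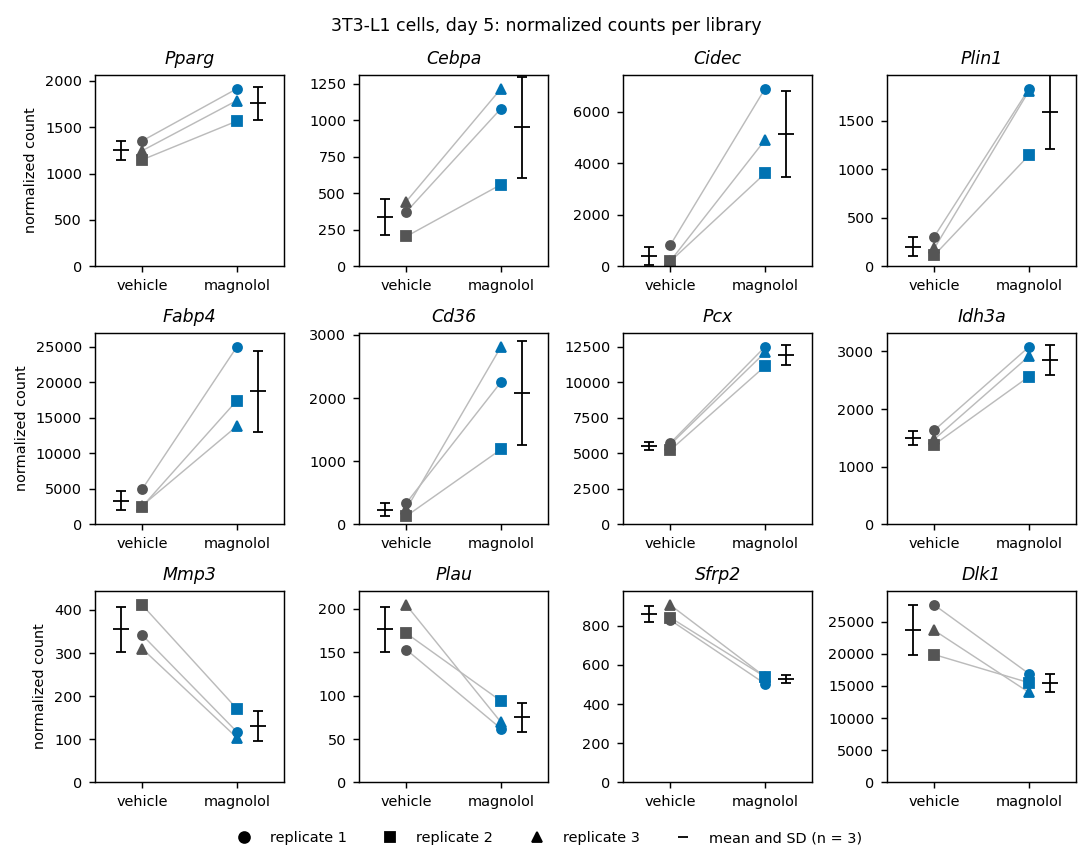
Normalized counts of 12 genes in each of the 3 vehicle (grey) and 3 magnolol (blue) 3T3-L1 libraries on linear axes from 0, with lines joining libraries of the same replicate number and bars for the mean and SD of each group. The 8 genes of the upper and middle rows lie higher in all 3 magnolol libraries, for example Pcx at 11133 to 12501 against 5224 to 5715, and the 4 genes of the bottom row lie lower.

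Cidec and Plin1, which rose most among droplet genes, and Mmp3, the largest fall named, are shown with the 250 bases before their start. The bases are from RefSeq (GRCm38.p6), each stretch on the strand of its gene. Only windows that hold the motif marked in capitals were printed, so its presence in these stretches follows from that choice. Capitals mark TTGCNNAA, a C/EBP-type motif, searched on both strands. The stretches lie at chr6:113434765-113435014 on the minus strand for Cidec, chr7:79732777-79733026 on the minus strand for Plin1 and chr9:7445572-7445821 on the plus strand for Mmp3.
Cidec: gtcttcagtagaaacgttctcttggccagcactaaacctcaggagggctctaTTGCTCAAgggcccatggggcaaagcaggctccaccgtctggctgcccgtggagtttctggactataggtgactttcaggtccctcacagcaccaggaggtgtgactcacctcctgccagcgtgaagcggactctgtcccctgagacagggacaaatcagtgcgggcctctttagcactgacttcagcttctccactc
Plin1: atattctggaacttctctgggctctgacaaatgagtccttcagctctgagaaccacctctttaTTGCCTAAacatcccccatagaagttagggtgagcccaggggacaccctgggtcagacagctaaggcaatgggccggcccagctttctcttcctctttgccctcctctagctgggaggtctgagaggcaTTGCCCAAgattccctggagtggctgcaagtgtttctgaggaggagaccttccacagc
Mmp3: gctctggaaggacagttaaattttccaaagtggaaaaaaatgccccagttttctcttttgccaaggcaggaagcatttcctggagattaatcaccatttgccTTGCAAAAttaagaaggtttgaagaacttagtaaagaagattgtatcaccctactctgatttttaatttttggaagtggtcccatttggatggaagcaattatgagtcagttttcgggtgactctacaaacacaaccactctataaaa
The first base of the match lay at −198 in Cidec, at −187 and −58 in Plin1 and at −148 in Mmp3, counted from the start. Windows of 300 bases were matched by symbol for 133 of 190 called genes with a symbol. TTGCNNAA occurred in 14 of 117 called rises (12%) and 6 of 16 called falls (37.5%), against 10% of the 10161 tested genes with a window and 12.2% of all 27025 genes. With the block it occurred in 51 of 402 rises (12.7%) and 33 of 166 falls (19.9%). The hexamer AGGTCA, to which PPARγ and RXRα each bind, occurred in 23 of 117 rises (19.7%) and in 1 of 16 falls (6.25%), against 14.5% of tested genes and 18.1% of all genes. With the block the hexamer occurred in 74 of 402 rises (18.4%) and 27 of 166 falls (16.3%). Its direct repeat with 1 base between, which overlaps the hexamer search, occurred in 0 of the 133 and in 0.0492% of tested genes, and TTGCGCAA, which TTGCNNAA includes, in 0 of the 133 and in 0.335%. A match describes letters in a window only, and binding was not measured.

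Of 17 genes of fatty acid uptake and binding 6 rose and none fell, with a list median of 0.23. Fabp4, the fatty acid carrier of the adipocyte cytosol, stood at 4942, 2489 and 2627 normalized counts with vehicle and at 24975, 17420 and 13820 with magnolol. The lowest magnolol library was above the highest vehicle library by a wide margin, and the log2 fold change was 2.51 ± 0.32 (limma adjusted p = 0.00142). Cd36, a fatty acid transporter of the cell surface, stood at 335, 129 and 238 with vehicle and at 2252, 1187 and 2811 with magnolol. Its log2 fold change was 3.16 ± 0.50 (adjusted p = 0.00833), and the call was lost only without magnolol 1 (adjusted p = 0.0517). The other risers were Acsl1, which activates fatty acids with coenzyme A (2.28 ± 0.34, adjusted p = 0.00692), the carrier gene Fabp5 (1.45 ± 0.28, adjusted p = 0.0187), the HDL receptor gene Scarb1 (1.22 ± 0.15, adjusted p = 0.00122) and Angptl4, a secreted inhibitor of lipoprotein lipase (0.98 ± 0.15, adjusted p = 0.00833). The call for Angptl4 was lost without magnolol 1 (adjusted p = 0.0577), and that for Fabp5 without vehicle 2, vehicle 3, magnolol 1 or magnolol 3 (adjusted p = 0.0577 to 0.117). Lpl, which encodes lipoprotein lipase, already stood at 53196, 39958 and 38886 with vehicle and reached 90202, 69342 and 59614 with magnolol. Within each replicate number it was higher with magnolol by 0.76, 0.80 and 0.62 on the log2 scale, and it passed only with the block (adjusted p = 0.207 without, 2.3e-04 with).

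Of 16 genes for triglyceride synthesis and glycerol supply 8 rose and none fell, and the list median was 0.63. Gpd1, which makes the glycerol 3-phosphate backbone, stood at 969, 256 and 180 normalized counts with vehicle and at 3631, 1838 and 2448 with magnolol, a log2 fold change of 2.83 ± 0.58 (limma adjusted p = 0.0265). The groups did not overlap, although vehicle 1 was several times the other vehicle libraries. Dgat2, which attaches the last fatty acid of a triglyceride, stood at 248, 116 and 174 with vehicle and at 901, 557 and 1007 with magnolol (2.21 ± 0.42, adjusted p = 0.0162). Aqp7, the glycerol channel of fat cells, was low throughout, at 16.03, 5.14 and 8.14 with vehicle and 47.5, 30.6 and 76.3 with magnolol (2.32 ± 0.50, adjusted p = 0.0317). Pck1, which feeds glycerol synthesis from pyruvate and is a known PPARγ target, was barely detected with vehicle, at 0.891, 0.856 and 0, which is 1 estimated read or none per library. It reached 12.6, 9.49 and 15.7 with magnolol (adjusted p = 0.0212), and no fold is given against so low a level. Each of these 4 calls was lost without vehicle 2, vehicle 3, magnolol 1 or magnolol 3 (adjusted p = 0.0947 to 0.151 for Gpd1, 0.0561 to 0.091 for Dgat2, 0.112 to 0.187 for Aqp7 and 0.0594 to 0.102 for Pck1). With the block 10 of the 16 rose, Gpam and Gpat4 joining, but neither of the 2 passed with replicate number 1 or 3 left out of it (adjusted p = 0.0884 and 0.412 for Gpam, 0.189 and 0.554 for Gpat4).

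Lipolysis genes had the highest median of the 26 lists, 1.77, although several members were near the detection limit, with 4 of 11 members higher and none lower without the block and 9 higher with it. Lipe, hormone-sensitive lipase, stood at 817, 517 and 880 normalized counts with vehicle and at 2493, 1756 and 2689 with magnolol (log2 fold change 1.66 ± 0.28, limma adjusted p = 0.00996). Pnpla2, adipose triglyceride lipase, stood at 2852, 2017 and 2755 and at 7080, 4815 and 5635 (1.20 ± 0.20, adjusted p = 0.00941). The groups were apart for both lipases, and so they were for G0s2, the protein inhibitor of Pnpla2, at 52.6, 8.56 and 22.1 against 172, 93.9 and 132 (2.51 ± 0.55, adjusted p = 0.0336). The enzymes and their inhibitor thus rose in the same libraries. Pnpla3, the fourth riser, was near the detection limit with vehicle at 4.45, 0 and 0 and stood at 16.5, 12.7 and 25.4 with magnolol (adjusted p = 0.0316). The call for Pnpla2 was lost without magnolol 1 (adjusted p = 0.0683) and that for Lipe without vehicle 2, magnolol 1 or magnolol 3 (adjusted p = 0.0544 to 0.0683). The calls for G0s2 and Pnpla3 were lost in every run that left out vehicle 2, vehicle 3 or any magnolol library (adjusted p = 0.0515 to 0.177 and 0.0577 to 0.168). Mgll, which completes lipolysis, and Abhd5, the activator of Pnpla2, passed only with the block (1.91 and 0.41, block adjusted p = 0.00203 and 0.0111), and Abhd5 did not pass with replicate number 1 or 3 left out (0.202 and 0.302).

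Pparg, Cebpa and Rxra, which drive adipogenesis, were higher in all 3 magnolol libraries. Of the fits without and with the block over all libraries, they passed only in the latter. Pparg was present in every library, at 1353, 1149 and 1247 normalized counts with vehicle and at 1916, 1567 and 1789 with magnolol. The groups did not overlap, and the difference within replicate numbers was steady at 0.50, 0.45 and 0.52 on the log2 scale. The log2 fold change of 0.49 ± 0.13 passed only with the block (limma adjusted p = 0.0814 without, 2.5e-04 with). Cebpa stood at 372, 204 and 443 with vehicle and at 1079, 559 and 1215 with magnolol, with both groups lowest in replicate 2 and differences of 1.54, 1.45 and 1.45 within replicate numbers. Its log2 fold change of 1.48 ± 0.39 also passed only with the block when all libraries were fitted (adjusted p = 0.0944 without, 2.9e-07 with). Leaving out magnolol 2, Cebpa passed without the block (adjusted p = 0.0484). Rxra stood at 8796, 8177 and 8243 with vehicle and at 10918, 10508 and 11000 with magnolol, a difference of 0.36 ± 0.10 that passed only with the block (adjusted p = 0.133 without, 0.0431 with) and not when replicate number 1 or 3 was left out of it (adjusted p = 0.137 and 0.397).

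Of 22 adipogenic transcription factors and cofactors tested, 5 rose and none fell without the block, and 10 rose and 1 fell with it, with a list median of 0.26. Without the block the risers were Ppargc1b, a coactivator of mitochondrial genes (1.61 ± 0.26, limma adjusted p = 0.0091), Nr1h3, the oxysterol receptor LXRα (1.23 ± 0.27, adjusted p = 0.0366), Ebf2, a factor of beige and brown fat precursors (0.64 ± 0.12, adjusted p = 0.0161), Zfp423, a factor of committed preadipocytes (0.62 ± 0.12, adjusted p = 0.0212), and Stat5a (0.49 ± 0.11, adjusted p = 0.0317). Nr1h3 stood at 139, 100 and 151 with vehicle and at 336, 232 and 356 with magnolol, so its groups were well apart. The call for Ppargc1b was lost without magnolol 1 (adjusted p = 0.0673) and that for Ebf2 without vehicle 3, magnolol 1 or magnolol 3 (0.07 to 0.0947). The other 3 calls were lost in at least 5 of the 6 runs that left out a library, at up to adjusted p = 0.192 for Nr1h3 (without magnolol 3), 0.114 for Zfp423 and 0.178 for Stat5a (both without magnolol 1). Klf15, which is induced by glucocorticoids, was low (11.6, 1.71 and 8.14 against 38.8, 11.6 and 21.5) and passed only with the block (block adjusted p = 0.00215, 0.0739 with replicate number 1 left out). The 1 factor lower with the block was Klf4 (−0.50, adjusted p = 0.206 without and 9.6e-04 with, 0.0579 with replicate number 3 left out), a factor that acts early in induction. The early factors Cebpb (−0.26, adjusted p = 0.636) and Cebpd (−0.06, adjusted p = 0.957) did not pass in either fit.

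Of 13 genes of adipokines and their receptors 3 rose and none fell, with a list median of 0.36. Adipoq, which encodes adiponectin, stood at 794, 187 and 379 normalized counts with vehicle and at 3838, 1912 and 3085 with magnolol, a log2 fold change of 2.88 ± 0.53 (limma adjusted p = 0.0137). Retn, which encodes resistin, stood at 112, 24.0 and 34.9 and at 378, 174 and 252 (2.46 ± 0.51, adjusted p = 0.0282). The lowest magnolol library was above the highest vehicle library for both hormones. Adipor2, an adiponectin receptor, was the third riser (0.44 ± 0.09, adjusted p = 0.0226). Cfd, which encodes adipsin, stood at 306, 58.2 and 53.5 against 497, 236 and 416, where magnolol 2 lay below vehicle 1. Its difference of 1.88 ± 0.60 did not pass without the block (adjusted p = 0.207) and did with it (0.00475) or without vehicle 1 (0.023). The calls for Adipoq and Retn were lost without vehicle 2, vehicle 3, magnolol 1 or magnolol 3 (adjusted p = 0.0552 to 0.0885 and 0.103 to 0.168), and that for Adipor2 in every run but the one without vehicle 2 (0.0647 to 0.1).

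Of 18 genes of insulin signalling and glucose uptake 3 rose and 1 fell, with or without the block. Slc2a4, the insulin-regulated glucose transporter GLUT4, was low but separated, at 10.7, 5.99 and 5.81 normalized counts with vehicle and at 58.2, 30.6 and 60.7 with magnolol (log2 fold change 2.56 ± 0.51, limma adjusted p = 0.0226). Tbc1d4, whose product AS160 holds GLUT4 inside the cell until insulin acts, rose by 0.62 ± 0.10 (adjusted p = 0.0091), and the hexokinase gene Hk2 by 0.58 ± 0.09 (adjusted p = 0.0091). The one fall was Grb14, an adaptor that inhibits the insulin receptor, at 372, 339 and 299 with vehicle and 240, 230 and 207 with magnolol (−0.57 ± 0.12, adjusted p = 0.0313). The call for Slc2a4 was lost without vehicle 2, vehicle 3, magnolol 1 or magnolol 3 (adjusted p = 0.0832 to 0.129), that for Tbc1d4 without magnolol 1 or 3 (0.0519 and 0.0555), that for Hk2 without magnolol 1 (0.0557) and that for Grb14 in every run but the one without vehicle 3 (0.0712 to 0.174).

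Pcx had the lowest adjusted p of all genes tested in the fit without the block. It encodes pyruvate carboxylase, which supplies oxaloacetate for citrate export and fatty acid synthesis, and stood at 5715, 5224 and 5616 normalized counts with vehicle and at 12501, 11133 and 12104 with magnolol. The replicates were tight, the groups lay far apart, and the log2 fold change was 1.11 ± 0.12 (limma adjusted p = 0.00105). Fasn, fatty acid synthase, stood at 8234, 8066 and 8022 with vehicle and at 11872, 12108 and 14018 with magnolol (0.64 ± 0.10, adjusted p = 0.00831). Thrsp, a lipogenic regulator, stood at 243, 61.6 and 33.7 against 869, 489 and 422 (2.80 ± 0.60, adjusted p = 0.0313), and its call was lost in every run but the one without vehicle 1 (adjusted p = 0.0647 to 0.175). These 3 were the called members of 22 fatty acid synthesis genes, of which 11 were higher with the block and none lower, with a median of 0.34. Scd1, which desaturates stearate and whose reads may be shared with its close paralog Scd2, stood at 7057, 6100 and 3331 against 18079, 13341 and 8211. Its difference of 1.26 ± 0.39 passed only with the block (adjusted p = 0.183 without, 1.3e-05 with), as did that of Me1, malic enzyme (0.56 ± 0.14, 0.0814 without, 8.4e-04 with).

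Among enzymes of pyruvate entry and the citric acid cycle 4 of 25 rose. Idh3a, a subunit of the isocitrate dehydrogenase of the citric acid cycle, stood at 1632, 1382 and 1475 normalized counts with vehicle and at 3079, 2564 and 2918 with magnolol (log2 fold change 0.93 ± 0.16, limma adjusted p = 0.0113). It was the largest rise of the 25 genes for pyruvate entry and the cycle, of which 24 had a fold change above 0. With the block 17 rose, none fell in either fit, and the list ran from −0.18 to 0.93 with a median of 0.33. The other risers were Pdhx, a subunit of pyruvate dehydrogenase (0.58 ± 0.10, adjusted p = 0.0113), Mdh1, cytosolic malate dehydrogenase (0.59 ± 0.13, adjusted p = 0.0445), and Dld, a subunit shared by several dehydrogenase complexes (0.45 ± 0.10, adjusted p = 0.0424). The call for Idh3a was lost without vehicle 2, vehicle 3, magnolol 1 or magnolol 3 (adjusted p = 0.0523 to 0.0786), that for Pdhx without vehicle 3, magnolol 1 or magnolol 3 (0.0548 to 0.0843), and those for Mdh1 and Dld in all 6 runs (0.0511 to 0.258 and 0.0603 to 0.209).

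Branched-chain amino acid breakdown, which feeds carbon to lipid synthesis in adipocytes, had 4 rises among 21 genes without the block, 8 with it, no fall and a median of 0.24. The 4 were Aldh6a1 of the valine pathway, at 3040, 3233 and 3086 normalized counts with vehicle and 4682, 4687 and 5431 with magnolol (0.66 ± 0.12, limma adjusted p = 0.0122), Bckdhb, a subunit of the rate-limiting dehydrogenase (0.57 ± 0.13, adjusted p = 0.0481), Hibch (0.56 ± 0.12, adjusted p = 0.0364) and Mccc1 of the leucine pathway (0.44 ± 0.10, adjusted p = 0.0424). Their calls were lost without vehicle 3, magnolol 1 or magnolol 3, and all but that for Aldh6a1 also without vehicle 1 or 2, at adjusted p = 0.0523 to 0.0807 for Aldh6a1, 0.098 to 0.275 for Bckdhb, 0.0898 to 0.199 for Hibch and 0.0585 to 0.213 for Mccc1, which was lost without magnolol 2 too (0.0647).

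Fatty acid oxidation had 2 rises among 24 genes, 11 with the block, no fall and a median of 0.23. They were Cpt2, which completes the import of fatty acids into mitochondria (0.59 ± 0.13, limma adjusted p = 0.0433), and Acat1, a mitochondrial thiolase (0.33 ± 0.08, adjusted p = 0.0445), and both calls were lost in all 6 runs that left out a library (adjusted p = 0.0692 to 0.194 and 0.0692 to 0.225). Of 32 peroxisomal genes 3 rose, 8 with the block, with a median of 0.15. Pex11a, which drives peroxisome division, stood at 438, 418 and 422 normalized counts with vehicle and at 759, 640 and 762 with magnolol (0.75 ± 0.14, adjusted p = 0.0132). Crat, carnitine acetyltransferase, rose by 0.62 ± 0.11 (adjusted p = 0.0112) and Pex14, a receptor of the peroxisomal import machinery, by 0.38 ± 0.08 (adjusted p = 0.0317). The calls for Pex11a and Crat were lost without vehicle 2, magnolol 1 or magnolol 3, and for Pex11a also without vehicle 3 (adjusted p = 0.0539 to 0.0822 and 0.0541 to 0.0786), and that for Pex14 in all 6 runs (0.0621 to 0.171). The nuclear-encoded respiratory chain had 1 rise among 37 genes, 9 with the block and a median of 0.15, against 0 calls in either fit among the 13 genes of the mitochondrial genome (median 0.07). The 1 was Cyc1, cytochrome c1 (0.59 ± 0.11, adjusted p = 0.0187), lost without vehicle 2, vehicle 3, magnolol 1 or magnolol 3 (0.0553 to 0.13). Cycs, cytochrome c itself, passed only with the block (0.71 ± 0.19, adjusted p = 0.114 without, 8.1e-05 with).

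**Figure D3:**
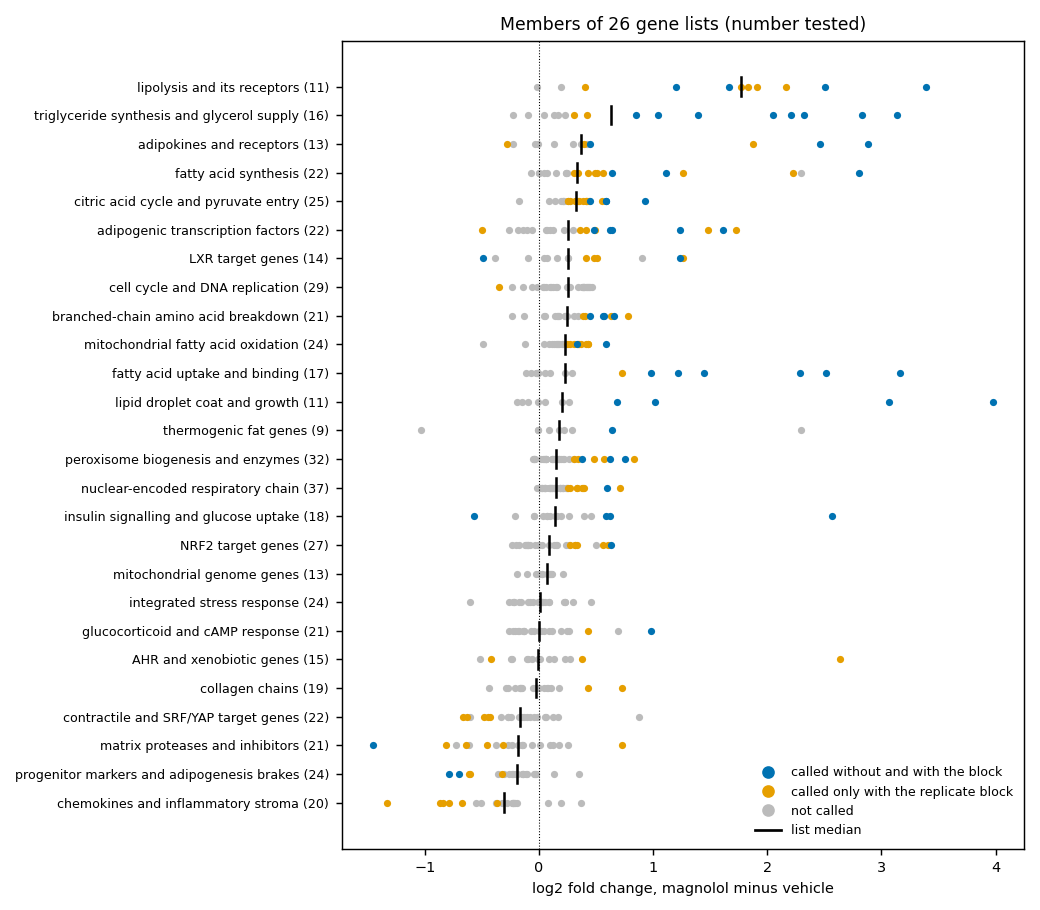
Log2 fold change of magnolol against vehicle for each tested member of 26 gene lists, with the number tested after each name, ordered by the list median (black bar). Blue members were called with and without the replicate block, orange only with it and grey in neither; lipolysis lies at the top with a median of 1.77, Cidec is the highest member at 3.98, and stromal lists lie at the bottom with medians down to −0.31.

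Genes that fell were fewer, with smaller median changes, and those with the largest falls included secreted proteases and a Wnt modulator. Mmp3, which encodes the matrix protease stromelysin 1, stood at 342, 412 and 310 normalized counts with vehicle and at 117, 171 and 104 with magnolol (log2 fold change −1.46 ± 0.26, limma adjusted p = 0.0119). Plau, which encodes the urokinase plasminogen activator, stood at 153, 172 and 205 and at 62.1, 93.9 and 69.5 (−1.23 ± 0.21, adjusted p = 0.00996). Both proteases were lower in every magnolol library than in every vehicle library. Sfrp2, a secreted modulator of Wnt signalling, stood at 828, 841 and 906 with vehicle and at 503, 539 and 539 with magnolol (−0.70 ± 0.15, adjusted p = 0.0317). Pdgfrl, a gene resembling the PDGF receptors, fell from 1404 to 1865 with vehicle to 829 to 1074 with magnolol (−0.79 ± 0.17, adjusted p = 0.0313). The calls for Mmp3 and Plau were lost without magnolol 1 or magnolol 3, and in addition without vehicle 2 for Mmp3 and vehicle 3 for Plau (adjusted p = 0.0603 to 0.0786 and 0.0523 to 0.0714). That for Sfrp2 was lost in all 6 runs (0.0737 to 0.168), and that for Pdgfrl without vehicle 1, vehicle 2, magnolol 1 or magnolol 3 (0.109 to 0.179).

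The other falls named were between −0.46 and −0.97 and covered several kinds of gene. Lyz2, a lysozyme gene of myeloid cells with the close paralog Lyz1, fell by 0.97 on the log2 scale (adjusted p = 0.0246), from 153 to 171 normalized counts down to 61.1 to 96.9. It was the 1 called gene of the macrophage list, of whose 4 tested members 2 lay above 0 and 2 below. The summed level of the list was 417 to 439 with vehicle and 294 to 310 with magnolol, mostly Lyz2 and Cd14. The other tested members overlapped, Cd68 at 19.6 to 36.03 against 27.39 to 35.89 and Csf1r at 12.03 to 25.51 against 12.37 to 24.52. The part of macrophages in the fall of Lyz2 was not tested, and their defining markers are not listed, as stated above. Id4, an inhibitor of helix-loop-helix factors (−0.60, adjusted p = 0.0226), Prkg2, a cGMP-dependent kinase (−0.67, adjusted p = 0.0137), Ctla2a, a protease inhibitor with a close paralog (−0.70, adjusted p = 0.00996), the serine protease gene Prss23 (−0.57, adjusted p = 0.0285) and Serpine2, an inhibitor of thrombin and urokinase (−0.57, adjusted p = 0.0285), fell as well. So did B2m, the light chain of MHC class I (−0.54, adjusted p = 0.0402), Pltp, the phospholipid transfer protein (−0.49, adjusted p = 0.0463), and Cryab, a small heat shock protein (−0.46, adjusted p = 0.0431). Ctla2a kept its call in all runs but the one without magnolol 3 (adjusted p = 0.0572), and Prkg2 lost it without vehicle 3, magnolol 1 or magnolol 3 (0.0519 to 0.089). The others lost it in at least 4 of the 6 runs, at up to 0.13 for Id4 (without magnolol 3), 0.151 for Prss23, 0.147 for Serpine2 and 0.153 for Lyz2 (all without magnolol 1), and 0.242 for B2m, 0.225 for Pltp and 0.239 for Cryab (without magnolol 3).

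Lists of progenitor, chemokine, protease and contractile genes had medians below 0, with 3 falls in all past the threshold without the block. Of 24 progenitor markers and brakes on adipogenesis, 22 had a fold change below 0, 2 fell without the block (Sfrp2 and Pdgfrl) and 5 with it, and the median was −0.20. Dlk1, the preadipocyte factor Pref-1 that holds back differentiation, stood at 27581, 19864 and 23620 normalized counts with vehicle and at 16884, 15493 and 13982 with magnolol. The groups did not overlap, and its difference of −0.61 ± 0.15 passed only with the block (limma adjusted p = 0.0564 without, 0.0116 with), though not when replicate number 1 or 3 was left out of it (0.0968 and 0.291). Chemokine and inflammatory stroma genes had 17 of 20 members below 0 and a median of −0.31, with 0 calls without the block and 6 falls with it. Cxcl13, a chemokine that attracts B cells, was the largest of these, at 314, 250.8 and 594 with vehicle and 87.3, 150 and 220 with magnolol (−1.34 ± 0.37, adjusted p = 0.116 without the block, 2.0e-04 with). Matrix proteases and their inhibitors had 15 of 21 members below 0 and a median of −0.18, and 1 fell without the block (Mmp3), against 5 lower and 1 higher with it. Contractile and SRF or YAP target genes had a median of −0.16 with 0 calls without the block and 5 falls with it. Smooth muscle markers summed to 3152 to 5805 with vehicle and 2258 to 4030 with magnolol. Most of that sum was Acta2 (2756 to 5383 against 1865 to 3673), a member of both lists, so it gives no separate level. Of 5 smooth muscle markers tested, 4 lay below 0. The 1 above was Myh11, at 24.41 to 45.36 with vehicle and 49.89 to 63.04 with magnolol. The part of smooth muscle cells in these values was not tested. Atp1b1, a subunit of the sodium pump, was in no list and passed only with the block (3784, 4129 and 2528 against 1864, 2309 and 1306; −0.94 ± 0.25, adjusted p = 0.104 without, 3.5e-06 with).

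Several programmes showed few calls. Nqo1, the quinone reductase, stood at 1309, 1457 and 1153 normalized counts with vehicle and at 1367, 1575 and 1008 with magnolol, overlapping groups with a difference of −0.01 ± 0.18 (limma adjusted p = 0.996; the sign turned in 5 of the alternatives). Among 27 NRF2 target genes 1 rose without the block and 7 with it, with a median of 0.09. The 1 was Taldo1, transaldolase of the pentose phosphate pathway (0.63 ± 0.14, adjusted p = 0.0419), lost in all runs but the one without vehicle 1 (0.0515 to 0.234). The integrated stress response had 0 calls among 24 genes in either fit (median 0.01), and collagen chains had 0 of 19 without the block and 2 rises with it, Col15a1 and Col6a3 (median −0.03). Cell cycle genes had 0 calls of 29 without the block and 1 fall with it, Pcna (−0.35, block adjusted p = 0.0266), while the list median was 0.25. The calls for Col15a1, Col6a3 and Pcna were lost when replicate number 1 or 3 was left out of the block (adjusted p = 0.0688 to 0.506). Of 21 thermogenic genes only 9 passed the minimum level; Ebf2 was the 1 call, and Ucp1 and Cidea were under the minimum. LXR targets gave 1 rise, the receptor gene Nr1h3 itself, and 1 fall, Pltp, among 14 genes, and with the block 5 rises including the cholesterol exporter Abca1 (0.51 ± 0.12, adjusted p = 0.0522 without, 0.0168 with, and 0.0888 and 0.399 with replicate number 1 or 3 left out). Glucocorticoid and cAMP responsive genes, which the shared induction mix acts on, gave 1 rise among 21 without the block, Angptl4, and 2 with it, Zbtb16 joining (median 0.002). AHR and xenobiotic genes gave 0 calls of 15 without the block and 3 with it, the rises Por and Cyp2e1 and the fall Aldh3a1 (median −0.01). The block calls for Zbtb16, Por and Aldh3a1 were lost when replicate number 1 or 3 was left out (limma adjusted p = 0.0964 to 0.336).

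Some of the largest rises fell outside the lists. Fam83a, whose product is a signalling adaptor studied mainly in epithelial cells, stood at 103, 32.5 and 87.2 normalized counts with vehicle and at 543, 325 and 600 with magnolol (log2 fold change 2.81 ± 0.43, limma adjusted p = 0.00801). Mcam, the cell adhesion molecule CD146, stood at 123, 29.1 and 54.6 and at 439, 186 and 436 (2.48 ± 0.52, adjusted p = 0.0278). The groups did not overlap in either gene, as the rule that named them required. Ces1d, a carboxylesterase of fat and liver within a family of close paralogs that could share reads, rose by 2.73 ± 0.50 (adjusted p = 0.0137), and the uncharacterized A530016L24Rik by 2.77 ± 0.44 (adjusted p = 0.00833). The call for A530016L24Rik was lost without magnolol 1 (adjusted p = 0.0519), and those for Mcam and Ces1d without vehicle 2, vehicle 3, magnolol 1 or magnolol 3 (0.0984 to 0.16 and 0.0561 to 0.0878). Over the 26 lists, leaving out magnolol 1 left called members in 3 of them, 3 in lipid droplets, 3 in fatty acid uptake and 2 in fatty acid synthesis.

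Magnolol libraries lay between dicoumarol and rosiglitazone for the adipocyte genes. The 10 adipocyte markers summed to 27622, 13869 and 17021 normalized counts in dicoumarol 1, 2 and 3, to 50283, 32271 and 35470 in magnolol 1, 2 and 3, and to 325112, 183815 and 253960 in rosiglitazone 1, 2 and 3. No dicoumarol library reached the lowest magnolol library, and no magnolol library came near rosiglitazone. Against dicoumarol, limma called 0 of 15723 genes (0%) without the block, with 693 at an unadjusted p under 0.05, and 79 with it (0.502%), 66 higher (0.42%) and 13 lower (0.0827%) with magnolol. The genes passing with the block included Cidec, at 1752 ± 1309 (SD, n = 3) with dicoumarol and 5125 ± 1656 with magnolol (log2 difference 1.77 ± 0.53 SE, adjusted p = 0.992 without, 0.00496 with). They also included Plin1 (1.41 ± 0.38, 0.992 without, 9.4e-04 with) and Pcx, at 7939 ± 1069 and 11913 ± 704 (0.59 ± 0.12, 0.972 without, 0.00608 with). For Pparg (0.30 ± 0.13) the block gave 0.0572 and for Gpd1 (1.32 ± 0.58) 0.182. Without known doses, these are differences between the cultures as treated.

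**Figure D4:**
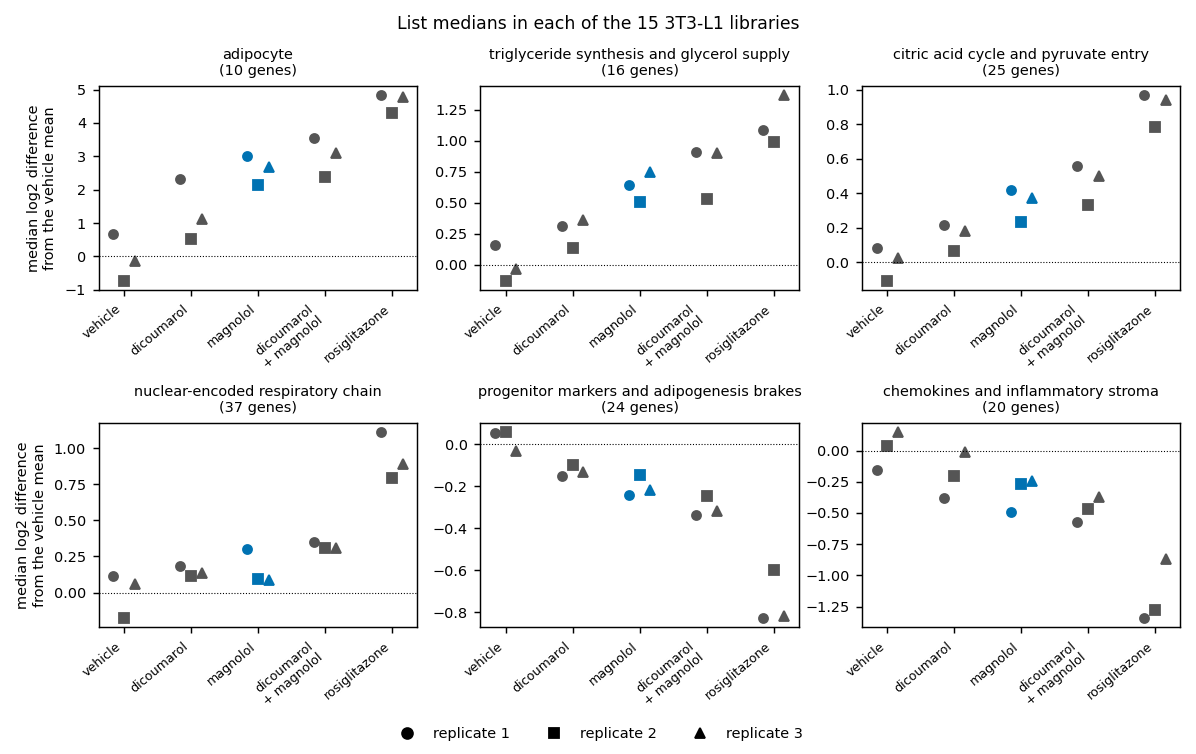
Median over the genes of a list of the log2 difference from the vehicle mean, in each of the 15 3T3-L1 libraries (marker shape, replicate number; blue, magnolol), for 6 lists with the number of genes in each title. Adipocyte markers in the magnolol libraries lie at 2.13 to 3.00, above the dicoumarol values for the same replicate number and below all rosiglitazone libraries, which reach 4.84.

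Against rosiglitazone 5496 genes differed (35%), 2797 higher (17.8%) and 2699 lower (17.2%) with rosiglitazone than with magnolol. Fabp4 reached 168275 ± 52535 normalized counts with rosiglitazone against 18738 ± 5693 with magnolol (log2 difference 3.16 ± 0.32, limma adjusted p = 3.1e-05), and Cidec 34692 ± 7438 against 5125 ± 1656 (2.79 ± 0.53, adjusted p = 0.00124). The gap extended to lists with small medians for magnolol against vehicle. Those of the nuclear-encoded respiratory chain and the mitochondrial genome were 0.15 and 0.07, with 35 of 37 and 10 of 13 genes above 0. All 37 nuclear-encoded respiratory chain genes and 12 of 13 mitochondrial genome genes were higher with rosiglitazone than with magnolol, with medians of 0.79 and 0.86. Plau (−1.41), Mmp3 (−1.45) and Cxcl13 (−2.20) were lower with rosiglitazone than with magnolol (adjusted p = 2.0e-04, 7.9e-04 and 5.3e-04). The difference was small and did not pass for Pparg, at 1963 ± 159 against 1757 ± 176 (0.16 ± 0.13, adjusted p = 0.334), for Scd1 (0.23 ± 0.39, adjusted p = 0.673), for Fasn (0.06 ± 0.10, adjusted p = 0.653) and for Rxra (0.03 ± 0.10, adjusted p = 0.851). Mitochondrial genes took 7.67% to 14.3% of the counts in the rosiglitazone libraries, a share above that of the magnolol libraries, and its part in these differences was not tested. Without rosiglitazone 1, which had the highest such share, the count was 3364.

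Porcine DFAT cells differed from 3T3-L1 cells in species, cell type and, as stated above, induction mix. In DFAT cells magnolol against vehicle was tested in other libraries, in a table normalized separately. There 626 of 14819 genes differed (4.22%), 438 higher (2.96%) and 188 lower (1.27%), falling to 400 without DFAT vehicle 1 and 413 without DFAT magnolol 3 and rising to 1360 with the replicate block (834 higher, 526 lower). Among 9370 genes matched by symbol and tested in both, 297 were higher (3.17%) and 136 lower (1.45%) in DFAT cells. Of the 116 matched genes that rose in 3T3-L1 cells, 19 were higher in DFAT cells (16.4%, or 6.397% of the DFAT rises) and 1 was lower, and their median DFAT log2 fold change was 0.03. Lipid genes were among the 19: in DFAT cells Adipoq was higher by 5.75, Plin1 by 3.90, Pck1 by 3.91, Slc2a4 by 3.59, Thrsp by 2.78, Cd36 by 2.26, Lipe by 1.73, Fabp4 by 1.42 and Cidec by 1.28 (limma adjusted p of at most 7.4e-05). Pparg was higher by 0.35 (adjusted p = 0.00539). Other genes that rose in 3T3-L1 cells did not pass in DFAT cells, among them Gpd1 (0.38, adjusted p = 0.483), Nr1h3 (−0.02, 0.955), Ppargc1b (0.03, 0.933) and Idh3a (−0.21, 0.0695).

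**Figure D5:**
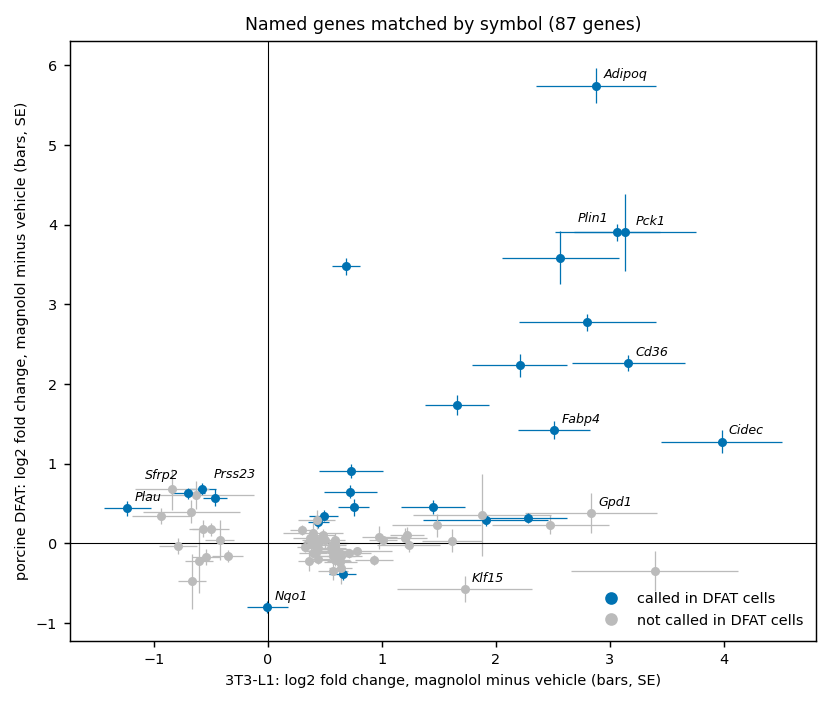
Log2 fold change of magnolol against vehicle, with SE bars, in 3T3-L1 cells (horizontal axis) and porcine DFAT cells (vertical axis) for 87 of the 110 genes followed that were matched by symbol; blue genes were called in DFAT cells. Lipid genes such as Adipoq, Plin1 and Cd36 lie high on both axes, while most other 3T3-L1 rises lie near 0 on the DFAT axis and Plau, Sfrp2 and Prss23 lie above it.

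The citric acid cycle list, with a median of 0.33 in 3T3-L1 cells, had 0 calls among 23 matched genes in DFAT cells and a median of −0.06. Collagen chains had 11 of 16 matched genes higher in DFAT cells (median 0.58) and 0 of 19 called in 3T3-L1 cells without the block (median −0.03), and contractile and SRF or YAP targets had 8 of 22 higher (median 0.40) in DFAT cells and 0 of 22 called in 3T3-L1 cells without the block (median −0.16). In DFAT cells 7 of 18 matched NRF2 targets were lower, including Nqo1 (−0.80, limma adjusted p = 5.5e-06). Of the 16 matched genes that fell in 3T3-L1 cells 4 were higher in DFAT cells (25%, or 1.35% of the DFAT rises) and 2 were lower. The difference between the cell systems was not tested for any of these, nor was the part of the induction mix in it.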

How the data were processed

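The libraries were mRNA-enriched and strand-marked, per the labels' protocols. What the authors deposited is a signal per gene: counts divided by DESeq2 size factors, as the file name in the labels gives it. The submitters' processing notes name STAR, DESeq2, bcl2fastq 2.19.1.403 and GRCm38, with no roles. Of 24070 genes matched to GENCODE M21 (GRCm38), 2.18% had the same start as deposited, so no deposited coordinate is printed. Low values were whole multiples of 1 read's worth in 81.2% to 81.9% of cases (tolerance 0.02), so reads were not recovered, and the 1 test on estimated reads (limma-voom) is only an alternative.

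From the 24843 genes, those averaging 10 or more across the 15 3T3-L1 libraries were fitted with limma 3.58.1 (R 4.3.3) on log2(value + 1), all 5 groups in 1 model with a variance trend, two-sided, adjusted by Benjamini-Hochberg at 0.05. Same-number deviations correlated at 0.106 or more (median 0.300), different-number ones at a median of −0.142, so the fit with the replicate block stands beside the result. Replicate pairs within the vehicle and magnolol groups gave a chi-square per gene of 15.7 to 52.4, a ratio of squared differences to sampling variance. The pig table was fitted alone.

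The members and lists were chosen with earlier results of these data known. The largest rises and falls were taken among called genes with a symbol and no overlap between the magnolol and vehicle libraries. By rule were followed the 12 largest rises and falls (mean of at least 100), 2 called and 2 block-only members per list, 4 block-only rises and falls, and 10 fixed genes; 20 further genes were chosen after their values were seen, to complete short counts, as were Cebpb, Cebpd and Cyp2e1: Stat5a, Zfp423, Plin4, Fitm2, Pnpla2, Pnpla3, Acsl1, Scarb1, Fabp5, Dgat2, Fasn, Adipor2, Hk2, Pex14, Pdhx, Dld, Mccc1, Hibch, Klf4 and Cryab. Figures used Python 3.11.15 with matplotlib 3.10.9.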

Additional observations from a re-analysis of the deposited data

Results flagged for a closer look

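In 17 of the 87 named genes matched by symbol, every magnolol library lay on one side of every vehicle library in 3T3-L1 cells and on the other side in porcine DFAT cells. Such a separation was seen in 15.4% of all genes tested in 3T3-L1 cells, and the rule for naming the largest rises and falls required it there. The share of all matched genes that separated in opposite directions was not counted. The difference between the systems was not tested, since the tables were normalized separately, and no explanation was weighed. The induction mix also differed between the systems. Genes higher with magnolol in 3T3-L1 cells and lower in DFAT cells were Klf15 (DFAT log2 fold change −0.57), Aldh6a1 (−0.39), Bckdhb (−0.35), Taldo1 (−0.24), Tbc1d4 (−0.22), Idh3a (−0.21), Mccc1 (−0.19), Bcat2 (−0.16), Ebf2 (−0.16), Uqcrfs1 (−0.13) and Dbt (−0.10). Of these only Aldh6a1 passed the test in DFAT cells (limma adjusted p = 0.00294). Genes lower in 3T3-L1 cells and higher in DFAT cells were Prss23 (0.68), Sfrp2 (0.63), Cryab (0.57), Plau (0.44), Atp1b1 (0.34) and Klf4 (0.17). Prss23, Sfrp2, Cryab and Plau passed in both systems (DFAT adjusted p = 3.0e-05, 1.8e-05, 0.0027 and 0.0119), and the 3T3-L1 log2 fold change of Cryab was −0.46 (adjusted p = 0.0431).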

How the results depend on the processing

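The 193 calls in 3T3-L1 cells became 780 with the replicate block, 757 with array weights (460 higher, 297 lower, so 60.8% higher against 87.6%), 106 with only the magnolol and vehicle libraries fitted and 80 without the variance trend. They stayed between 160 and 199 with a pseudocount of 0.5 or 8, no filter, a mean of at least 100, quantile normalization or equal totals, and 137 were called by limma-voom on estimated reads, an alternative chosen after seeing the data. Leaving out 1 library gave 22 to 135 calls, all 22 being among the 193. With the block, leaving out replicate number 1, 2 or 3 in every group gave 258, 810 and 232. Some genes described as passing only with the block also passed with array weights. They included Cebpa, Rxra, Dlk1, Cxcl13, Atp1b1, Abhd5 and Gnpat (limma adjusted p = 0.00148 to 0.0416). Against dicoumarol the block turned 0 calls into 79, and each other alternative run gave 0 (336 to 1130 at an unadjusted p under 0.05). The 5496 genes between rosiglitazone and magnolol ranged from 3364 to 6015 when 1 library was left out. In DFAT cells 626 calls became 1360 with the replicate block and 400 to 577 with 1 library left out. Nqo1 in 3T3-L1 cells turned from −0.0065 to 0.0632 with array weights, 0.0002 with equal totals, 0.0754 without vehicle 2 and 0.0874 with the block and without number 3, and leaving out 1 library gave −0.1479 to 0.174, the highest without magnolol 3. Over the 110 genes followed and the alternatives 1688 values kept side and sign, 356 lost and 142 gained the call, and these 5 turned. The cause of these moves was not tested.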

Other observations

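Of the enzymes called only with the replicate block, Gpt, Bcat2 and Gnpat are described here. Gpt, alanine aminotransferase, stood at 84.6, 55.6 and 96.5 normalized counts in 3T3-L1 vehicle 1, 2 and 3 and at 202, 132 and 218 in magnolol 1, 2 and 3, and the groups did not overlap. Its log2 fold change was 1.21 ± 0.36 (limma adjusted p = 0.155 without the block, 5.6e-04 with), and the difference within replicate numbers was 1.24, 1.23 and 1.17. Bcat2, the mitochondrial branched-chain aminotransferase, differed by 0.63 ± 0.19 (0.166 without, 1.2e-04 with), and by 0.70, 0.82 and 0.38 within replicate numbers. Gnpat, which starts ether lipid synthesis in peroxisomes, differed by 0.57 ± 0.16 (0.115 without, 5.6e-04 with). All 3 passed with the block when any 1 replicate number was left out.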
